A study of Mus musculus with 6 samples.

Results

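The genes described here make up the response of macrophages to interleukin 4 and the state called alternative activation. They are the receptor chains Il4ra and Il13ra1, the transcription factors Stat6 and Irf4, and the products Retnla, Chil3, Arg1, Pdcd1lg2, Ccl17 and Ccl22. They were chosen by gene symbol, taking every probe set whose only annotated symbol was 1 of these 10 genes, out of 18193 genes with such a probe set. The 10 genes had 18 such probe sets, of which 14 from 7 genes were bright enough to be tested; the single probe sets of Pdcd1lg2, Ccl17 and Ccl22 and 1 of the 5 probe sets of Il13ra1 were not.

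Interleukin 4 and interleukin 13 are made by T helper 2 cells, innate lymphoid cells, eosinophils and basophils, and both signal through the chain encoded by Il4ra. Il4ra joins the common gamma chain to bind interleukin 4 alone, or Il13ra1 to bind either cytokine. Bound receptors activate Janus kinases, which phosphorylate STAT6, and STAT6 then enters the nucleus and drives genes such as Retnla, Chil3 and Arg1 in mouse macrophages. In the peritoneal and pleural cavities of mice, resident macrophages are known to respond to interleukin 4 with these genes and with proliferation, for example during worm infection.

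The series compared resident peritoneal macrophages of 7-week-old mice, sorted as CD11b-high and MHCII-low/negative cells. The 3 Gata6-KO samples came from mice with a conditional, floxed Gata6 deletion and the 3 Gata6-WT samples from wild type mice, with no cytokine or other treatment named in the labels. Each sample was a pool of lavage cells from 2 to 3 mice, called a biological replicate in the labels, and was measured on 1 array. The labels name neither the Cre driver nor the exons removed, so which Gata6 probe sets lie in the deleted part is not known. In sorted bulk cells fewer cells of a type and less RNA per cell cannot be told apart.

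Values are MAS5 signals on a linear scale, and the number of arrays limits their precision. Log2 differences and folds are Gata6-KO against Gata6-WT on the log2(signal + 16) scale, estimated with limma, a linear model fitted across all probe sets, and a gene passed at an adjusted p under 0.05. Median signals of the 6 arrays lay between 79.7 and 88.5. The Gata6 probe set with the highest signal had 4452, 3040 and 2998 in Gata6-KO replicates 1, 2 and 3, against 6433, 5405 and 7279 in Gata6-WT (log2 difference -0.88 ± 0.17 SE, limma adjusted p = 0.011). A weaker Gata6 probe set had 184, 173 and 183 in Gata6-KO, against 337, 449 and 483 in Gata6-WT (log2 -1.15, limma adjusted p = 0.0043). The intermediate Gata6 probe set had 2161, 1363 and 1751 in Gata6-KO, against 1614, 1436 and 2276 in Gata6-WT, which overlap. In both genotypes the replicate numbered 1 carried male-type expression, with Xist at 102 to 113 and the Y-linked gene Eif2s3y at 3494 to 3674, where the other 4 arrays had 11158 to 13749 and 1.22 to 15.3. Differences within these types are given below as male-type (1 array against 1, no test) and female-type (2 against 2). All 7 large peritoneal macrophage markers passed the brightness filter, among them Adgre1, Itgam, Icam2 and Csf1r. In Gata6-KO 4 of them were lower, namely Fcgr1 (6.97-fold), Adgre1 (3.63-fold), Timd4 (1.63-fold) and Icam2 (1.47-fold). Mertk was 1.35-fold higher, and Itgam and Csf1r did not pass. The Mertk and Icam2 calls were each lost without 5 of the 6 arrays in turn. None of the listed eosinophil, T and NK cell or mesothelial markers passed the filter. Of the mast cell markers only Cpa3 did, at 125, 145 and 206 in Gata6-KO, against 250, 284 and 305 in Gata6-WT (log2 -0.78, limma adjusted p = 0.051).

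The sorted Gata6-KO samples held more Retnla and Chil3 mRNA than the Gata6-WT samples, and less Il13ra1 mRNA. Retnla was 3.13-fold and Chil3 6.21-fold higher, and Il13ra1 was 1.77-fold lower. Arg1 was 2.38-fold higher in the estimate, with all 3 Gata6-KO arrays above all 3 Gata6-WT arrays, but did not pass the threshold. The remaining tested genes Il4ra, Stat6 and Irf4 did not pass it either. In counts, 2 of the 7 tested genes were higher and 1 was lower at a limma adjusted p under 0.05, where 5.61% of all 12511 tested genes were higher, 7.46% lower and 13.1% either. The median log2 difference of the 7 genes was 0.15, against -0.04 over all tested genes. All Gata6-KO arrays lay above the Gata6-WT arrays for 3 of the 7 genes and under them for 1, against 15.0% and 19.4% of all tested genes and 34.4% for either. The exact two-sided permutation test gave p = 0.1 for each of the 4, the smallest value that 3 arrays against 3 allow.

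By probe set, 2 of the 14 were higher and 1 was lower, against 5.12% and 5.67% of all tested probe sets and 10.8% for either. The Gata6-KO arrays lay above the Gata6-WT arrays at 4 of the 14, those of Retnla, Chil3 and Arg1 and the dimmer one of Irf4, where the background was 14.8%. They lay under them at 4, all of Il13ra1, where the background was 16.3%, or 31.0% for either. Probe sets of 1 gene share a transcript and are not independent.

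As both Retnla and Chil3 were higher, their RefSeq promoter windows (GRCm38.p6, 250 bases before to 50 after the annotated start) are shown, with matches to 3 motifs in capitals. The STAT6-type motif searched was TTC, any 4 bases, then GAA, the spacing preferred by STAT6. The shorter STAT-type motif has any 3 bases between TTC and GAA, the spacing of other STAT factors. The GATA-type motif was AGATAA. Both STAT motifs read the same on either strand, the GATA-type motif was searched on both strands, and none of the matches overlap. The Retnla window, on the plus strand at chr16:48842359-48842658, holds 1 match, TTCACAAGAA, 145 to 136 bases before the start. The Chil3 window, on the minus strand at chr3:106167515-106167814, holds TTCTTAGAA from 172 to 164 bases and a reverse-strand GATA-type match from 122 to 117 bases before the start.
Retnla: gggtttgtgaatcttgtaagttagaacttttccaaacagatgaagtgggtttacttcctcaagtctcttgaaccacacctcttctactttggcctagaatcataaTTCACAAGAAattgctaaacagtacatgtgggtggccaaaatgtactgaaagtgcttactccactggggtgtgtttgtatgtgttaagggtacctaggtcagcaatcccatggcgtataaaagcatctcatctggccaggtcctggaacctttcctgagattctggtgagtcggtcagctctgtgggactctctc
Chil3: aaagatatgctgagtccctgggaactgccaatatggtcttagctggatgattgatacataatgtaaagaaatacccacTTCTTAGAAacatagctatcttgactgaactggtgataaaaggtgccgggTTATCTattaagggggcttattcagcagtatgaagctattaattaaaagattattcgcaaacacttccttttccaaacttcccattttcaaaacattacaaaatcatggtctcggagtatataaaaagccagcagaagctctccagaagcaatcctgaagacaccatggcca

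Of the 9 genes with a window in the table, 3 hold the STAT6-type motif, against 6.95% of all 32851 windows. These are Retnla and the weakly expressed genes Pdcd1lg2 and Ccl17, whose matches are shown with the 10 bases on each side. The Pdcd1lg2 match lies on the plus strand at chr19:29410837-29410846, and the Ccl17 match on the plus strand at chr8:94810299-94810308.
Pdcd1lg2: catgctccagTTCCTCAGAAaccattctgg
Ccl17: cgagtgaccaTTCTCTGGAAagccacaaac
The shorter STAT-type motif was found in 2 of the 9, Chil3 and Ccl17, against 8.3% of all windows, and the GATA-type motif in 3 of the 9, Chil3, Pdcd1lg2 and Ccl17, against 11.2%. None of the 3 motifs was found in the windows of Il4ra, Il13ra1, Stat6, Irf4 and Ccl22. The windows also differ in base composition. GC content is 44.7% at Retnla and 38.7% at Chil3, with 2 and 3 CpG sites, whereas it is 71.0% with 28 CpG sites at Il13ra1 and 62.0% with 25 at Il4ra, against a median of 52.7% and 7 CpG sites over all windows. A match is a run of letters, and binding was not measured.

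**Figure D1:**
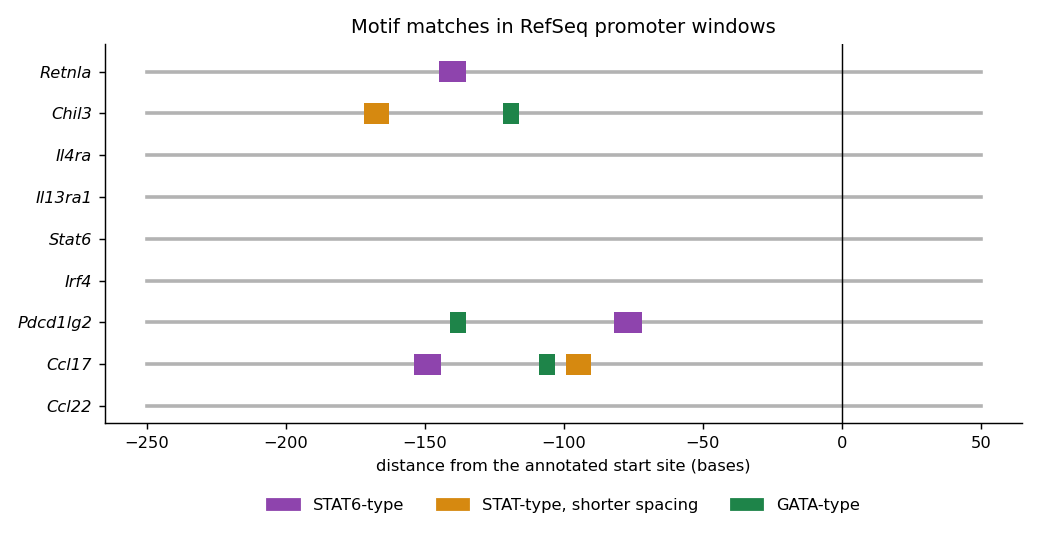
Positions of the motif matches in the promoter windows of 9 of the genes, with distance from the annotated start site in bases on the x axis. Coloured blocks mark STAT6-type, shorter-spaced STAT-type and GATA-type matches, which lie between 172 and 73 bases before the start of Retnla, Chil3, Pdcd1lg2 and Ccl17.

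Retnla encodes RELM alpha, a secreted cysteine-rich protein that is among the most strongly induced products of interleukin 4 in mouse macrophages. Its signal was 34919, 33410 and 42525 in Gata6-KO replicates 1, 2 and 3, against 20172, 7458 and 10770 in Gata6-WT replicates 1, 2 and 3. Every Gata6-KO array lay above every Gata6-WT array, and the wild type arrays were spread more widely, with replicate 1 the highest. The means were 36951 ± 4885 in Gata6-KO and 12800 ± 6595 in Gata6-WT (SD, n = 3), and the log2 difference was 1.64 ± 0.29 (SE; 95% interval 0.98 to 2.3; limma adjusted p = 0.007). With 1 array left out it ran from 1.32, without Gata6-WT replicate 2, to 2.03, without Gata6-WT replicate 1, and all 6 such fits kept the call. It was 0.79 in the male-type and 2.07 in the female-type arrays; the limma interaction had an unadjusted p of 0.0059 and an adjusted p of 1.0, and with 1 male-type array a genotype it shows neither a difference nor its absence. Without limma's mean-variance trend the adjusted p was 0.051.

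Chil3 encodes the chitinase-like protein Ym1, which binds sugars without cleaving chitin and is made by alternatively activated macrophages, by neutrophils and by classical monocytes in mice. Its signal was 2875, 987 and 861 in Gata6-KO, against 409, 67.3 and 284 in Gata6-WT. The groups did not overlap, and in both of them replicate 1 was the highest array. The log2 difference was 2.63 ± 0.6 (SE; 95% interval 1.29 to 3.98; limma adjusted p = 0.021), at 2.77 in the male-type and 2.57 in the female-type arrays. Without Gata6-KO replicate 1 Chil3 no longer passed (log2 2.09, limma adjusted p = 0.064), nor did it without the mean-variance trend (limma adjusted p = 0.087). The smallest difference came without Gata6-WT replicate 2, the lowest array, and still passed (log2 1.93, limma adjusted p = 0.041).

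A probe set annotated to both Chil3 and its close relative Chil4, which encodes Ym2, moved the same way. Its signal was 1104, 388 and 440 in Gata6-KO, against 255, 48.8 and 112 in Gata6-WT (log2 2.17 ± 0.52 SE, limma adjusted p = 0.026). That call was lost without Gata6-KO replicate 1 or 3 or Gata6-WT replicate 2 or 3, with limma adjusted p of 0.055 to 0.08. The probe set of Chil4 alone was below the filter, at 35.0, 28.8 and 7.78 in Gata6-KO and 4.08, 2.01 and 7.80 in Gata6-WT. Chil3 and Chil4 are closely similar paralogs, and signal from one transcript on probes of the other was not measured, so the Chil3 values are uncertain to that extent.

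Chil3 is also a gene of monocytes, and the level of monocyte markers differed between the groups. Ccr2, the receptor that brings monocytes into tissue, had 9632, 2401 and 1740 in Gata6-KO, against 186, 105 and 106 in Gata6-WT (log2 4.58, limma adjusted p = 0.00064), with the highest array in each group again replicate 1. Of the 4 tested Ccr2 probe sets 3 passed as higher, and the 4 log2 differences ran from 1.08 to 4.58. Over the 3 measured genes of the monocyte and small peritoneal macrophage list, Ccr2, Plac8 and Cx3cr1, the summed signal was 1984 to 9962 in Gata6-KO and 255 to 316 in Gata6-WT. Plac8 was higher, at 309, 342 and 199 in Gata6-KO, against 105, 167 and 130 in Gata6-WT (log2 0.98, limma adjusted p = 0.038). Unlike Ccr2, its highest array in each group was replicate 2. The Plac8 call was lost without Gata6-KO replicate 1 or 2 or Gata6-WT replicate 1 or 3 (limma adjusted p 0.082 to 0.13), and Cx3cr1 was below the filter. The 4 measured neutrophil markers summed to 390 to 792 in Gata6-KO and 955 to 1613 in Gata6-WT. Most of this was S100a8, which was lower at 664, 293 and 507 in Gata6-KO, against 1002, 847 and 1484 in Gata6-WT (log2 -1.2, limma adjusted p = 0.029), a call lost without Gata6-KO replicate 2 or 3 or Gata6-WT replicate 1 or 3 (0.058 to 0.088). The other tested one, Ngp, differed by -0.11 (limma adjusted p = 0.88). S100a9 and Camp were below the filter, with means of 17.9 and 27.0 in Gata6-KO, against 4.11 and 20.5 in Gata6-WT. The part of either cell type in the Chil3 difference was not tested.

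Arg1 encodes arginase 1, which splits arginine into ornithine and urea and so takes substrate from nitric oxide synthesis. Its signal was 3983, 3426 and 2851 in Gata6-KO, against 2523, 1711 and 654 in Gata6-WT. The groups did not overlap, but the lowest Gata6-KO and the highest Gata6-WT arrays lay close together, and Gata6-WT replicate 3 stood well below the others. The log2 difference was 1.25 ± 0.39 (SE; 95% interval 0.36 to 2.13; limma adjusted p = 0.078), at 0.66 in the male-type and 1.55 in the female-type arrays. It passed without Gata6-WT replicate 1 (log2 1.66, limma adjusted p = 0.02) and with a term for replicate 1 (limma adjusted p = 0.045), and was 0.7 without Gata6-WT replicate 3 (limma adjusted p = 0.064).

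**Figure D2:**
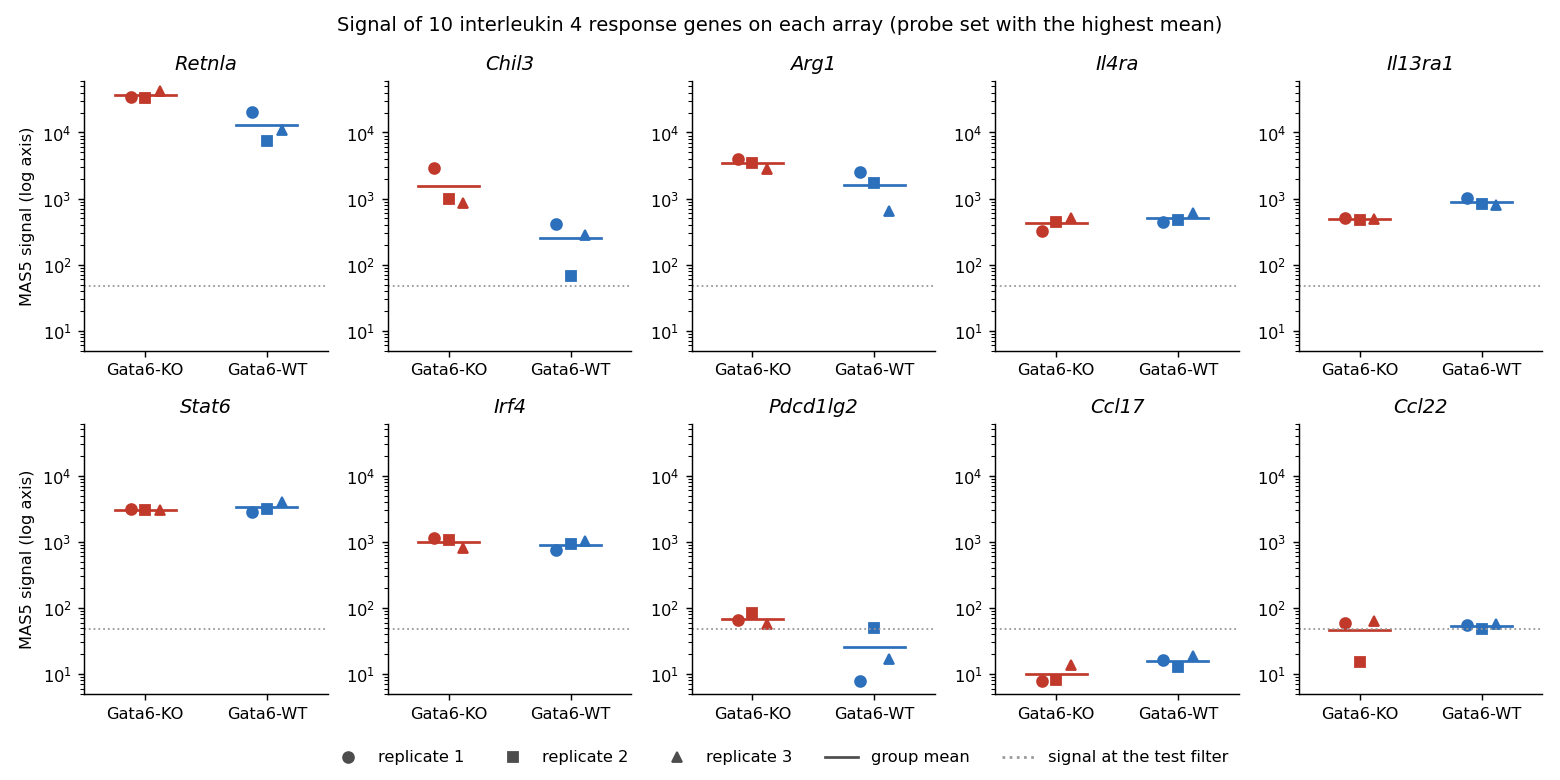
MAS5 signal on a log axis for the brightest probe set of each of the 10 genes, with 1 point per array and a bar at the mean of the 3 Gata6-KO arrays (left) and the 3 Gata6-WT arrays (right). Retnla, Chil3, Arg1 and Pdcd1lg2 have every Gata6-KO point above every Gata6-WT point, Il13ra1 has every Gata6-KO point below, and Pdcd1lg2, Ccl17 and Ccl22 lie around or under a signal of 47.5, the level of the test filter.

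Il13ra1 encodes the chain that pairs with the interleukin 4 receptor to form the type II receptor of non-lymphoid cells, the form that binds interleukin 13. At its brightest probe set the signal was 504, 477 and 490 in Gata6-KO, against 1004, 832 and 813 in Gata6-WT. The Gata6-KO arrays lay close together and all below the Gata6-WT arrays, at 55.5% of the wild type mean. The log2 difference was -0.82 ± 0.14 (SE; 95% interval -1.13 to -0.51; limma adjusted p = 0.005), at -0.97 in the male-type and -0.75 in the female-type arrays. All 6 fits with 1 array left out kept the call, at -0.88 to -0.73, while the fit of replicates 2 and 3 alone gave -0.75 with a limma adjusted p of 0.051. Il13ra1 lies on the X chromosome, and replicate 1, the male-type array, was the highest in each group at this probe set.

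The other probe sets of Il13ra1 were dimmer, and 3 of them were tested. Their log2 differences were -0.84, -0.63 and -0.38, with limma adjusted p of 0.067, 0.15 and 0.25, so none passed by itself, although in each of them no Gata6-KO array reached the lowest Gata6-WT value. The next brightest had 293, 235 and 322 in Gata6-KO, against 659, 391 and 338 in Gata6-WT, and the third 171, 243 and 200 in Gata6-KO, against 276, 275 and 253 in Gata6-WT. The mean of the 4 tested probe sets differed by -0.67 (limma adjusted p = 0.029). The fifth probe set was below the filter, and its groups overlapped at 27.4, 63.0 and 69.0 in Gata6-KO and 25.6, 11.0 and 95.6 in Gata6-WT.

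Il4ra encodes the shared signalling chain of both interleukin 4 receptor types. Its brightest probe set had 323, 441 and 517 in Gata6-KO, against 440, 471 and 614 in Gata6-WT, and the groups overlapped. The log2 difference was -0.25 ± 0.2 (SE; limma adjusted p = 0.49), and its 95% interval of -0.71 to 0.2 does not exclude a moderate fall. The dimmer Il4ra probe sets had log2 differences of 0.53 and 0.23 with intervals of -0.83 to 1.89 and -0.65 to 1.1, so the sign differed between probe sets.

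Stat6 encodes the transcription factor activated by both receptors, and Irf4 a transcription factor that is induced through STAT6 and needed for part of the alternative activation programme in mice. Stat6 had 3118, 3038 and 2988 in Gata6-KO, against 2787, 3150 and 3975 in Gata6-WT, at a log2 difference of -0.1 (95% interval -0.41 to 0.21; limma adjusted p = 0.7). Its second probe set differed by 0.03 (-0.42 to 0.48). Irf4 had 1157, 1067 and 793 in Gata6-KO, against 743, 939 and 1020 in Gata6-WT, at a log2 difference of 0.15 (-0.25 to 0.55; limma adjusted p = 0.66). At the dimmer Irf4 probe set the Gata6-KO arrays, at 185, 184 and 190, lay above the Gata6-WT arrays, at 134, 147 and 146, but the log2 difference of 0.35 did not pass (-0.08 to 0.78; limma adjusted p = 0.29).

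**Figure D3:**
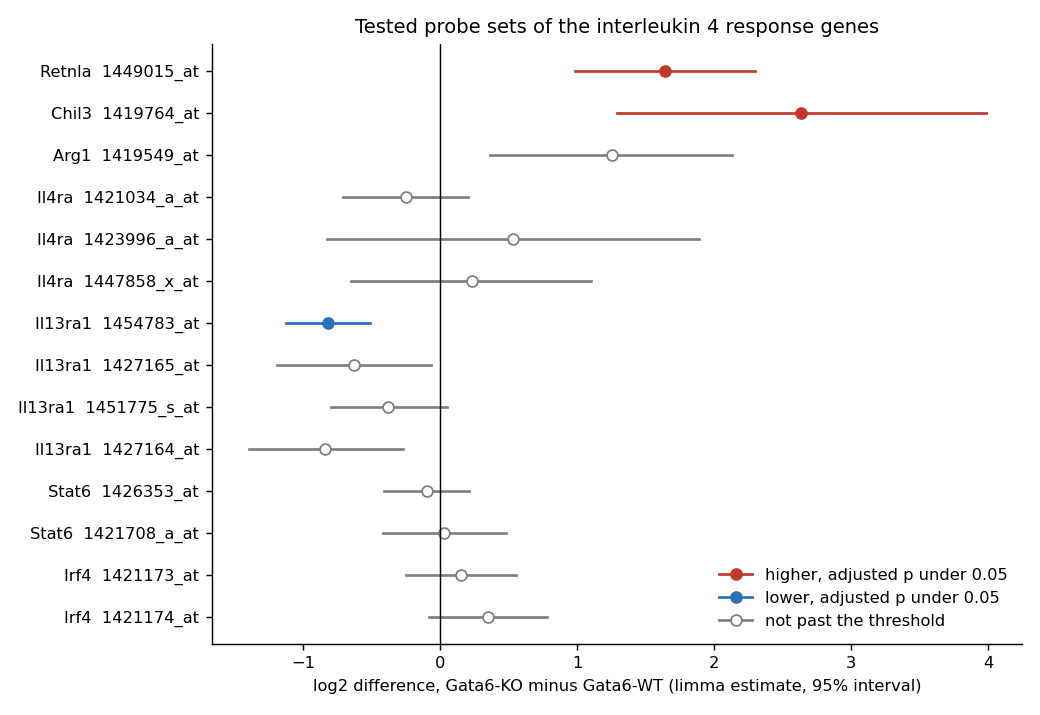
Log2 difference, Gata6-KO minus Gata6-WT, with its 95% interval for the 14 tested probe sets of Retnla, Chil3, Arg1, Il4ra, Il13ra1, Stat6 and Irf4. Filled points pass an adjusted p under 0.05, which holds for Retnla at 1.64, Chil3 at 2.63 and the brightest Il13ra1 probe set at -0.82.

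Pdcd1lg2 encodes PD-L2, a ligand of the inhibitory receptor PD-1, and Ccl17 and Ccl22 encode chemokines that attract T helper 2 and regulatory T cells through CCR4. All 3 are interleukin 4 targets in dendritic cells and macrophages. Pdcd1lg2 had 66.2, 83.4 and 57.6 in Gata6-KO, against 7.92, 50.5 and 17.0 in Gata6-WT. Its groups did not overlap, but its mean log2 value of 5.81 was under the filter at 5.99; tested with no filter, the log2 difference was 1.17 ± 0.46 (SE; unadjusted p = 0.031 and limma adjusted p = 0.22). Cd274, the gene of the related PD-1 ligand PD-L1, had 207, 227 and 206 in Gata6-KO, against 199, 170 and 83.8 in Gata6-WT (log2 0.53, limma adjusted p = 0.29). Ccl17 was dim on every array, at 7.93, 8.14 and 13.7 in Gata6-KO and 16.5, 12.6 and 19.0 in Gata6-WT. Ccl22 stood just under the filter at a mean log2 value of 5.97, with 59.6, 15.1 and 63.4 in Gata6-KO and 54.7, 48.3 and 56.4 in Gata6-WT, and its groups overlapped. With no filter the limma adjusted p was 0.67 for Ccl17 and 0.83 for Ccl22. The 6 measured dendritic cell markers summed to 338 to 602 in Gata6-KO and 563 to 1336 in Gata6-WT, of which Cd209a alone gave 92.1 to 158 in Gata6-KO and 281 to 1109 in Gata6-WT. The other 5 had higher means in Gata6-KO, and none of them was called. Zbtb46 averaged 185 in Gata6-KO and 135 in Gata6-WT, Itgax 70.3 in Gata6-KO and 62.8 in Gata6-WT, and Flt3, Ccr7 and Xcr1 were below the filter, with Xcr1 at a mean of 59.7 in Gata6-KO and 29.6 in Gata6-WT and no overlap between the groups. The part of dendritic cells in these values was not tested. Of the B cell markers Cd79a and Cd79b were below the filter, and none was called (limma; 0 had an unadjusted p under 0.05).

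**Figure D4:**
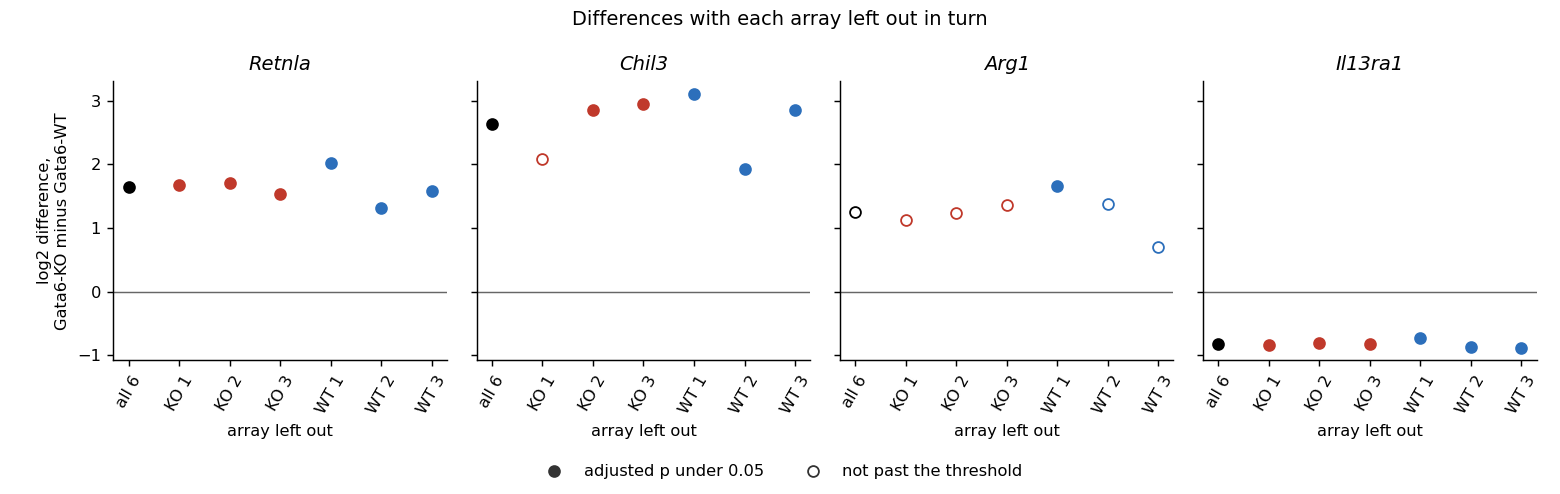
Log2 difference of Retnla, Chil3, Arg1 and Il13ra1 with all 6 arrays and with each array left out in turn; filled points pass an adjusted p under 0.05. Retnla and Il13ra1 stay filled throughout, Chil3 is open without Gata6-KO replicate 1 at 2.09, and Arg1 is filled in 1 fit, without Gata6-WT replicate 1, at 1.66.

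The rest of the pathway was read from lists of ligands, signalling genes, inhibitors, transcription factors and targets. For comparison with the list counts below, 5.61% of all 12511 tested genes were higher, 7.46% lower and 13.1% either. The median log2 difference over all tested genes was -0.04. The share of all tested genes with an unadjusted p under 0.05 was not counted. It is at least the 13.1% that passed after adjustment, so the unadjusted counts below have no exact background. Transcripts of the ligands were low, which says nothing of cytokine made by other cells. Il4 had 57.1, 57.0 and 49.3 in Gata6-KO, against 39.3, 25.3 and 45.9 in Gata6-WT, and Il13 stayed at 20.1 or below on all arrays; both were under the filter. Tslp, an epithelial cytokine that promotes type 2 responses, was the only ligand gene tested, and its log2 difference of 1.11 did not pass (limma adjusted p = 0.2). Of 6 tested receptor chains, kinases and adaptors none passed (limma; 2 had an unadjusted p under 0.05), with a median log2 difference of -0.23. The only receptor chain among them was Il13ra2, at 0.01. Il2rg, the gene of the common gamma chain, had no probe set annotated to it alone and was not tested. The kinase genes Jak1 and Jak2 differed by 0.18 and -0.31, Tyk2 by -0.31, and the adaptor Irs2, which links the interleukin 4 receptor to phosphoinositide signalling, by -0.58. These are values of the brightest probe sets. Over all tested probe sets the range was 0.18 to 0.37 for Jak1, -0.31 to 0.06 for Jak2 and -0.93 to -0.31 for Tyk2, with none called.

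Among 7 tested inhibitors of the pathway 1 was lower and 1 higher, with a median of -0.14. Socs3, an inhibitor of cytokine receptor signalling, had 2201, 2847 and 2178 in Gata6-KO, against 3979, 5081 and 7617 in Gata6-WT (log2 -1.16, limma adjusted p = 0.0087), and all 3 of its probe sets passed in that direction. Ptpn1, the phosphatase PTP1B that acts on Janus kinases and STAT6, had 5180, 5670 and 5937 in Gata6-KO, against 3581, 3763 and 3685 in Gata6-WT (log2 0.6, limma adjusted p = 0.005), and 1 of its 2 probe sets passed. Ptpn6, the phosphatase SHP-1, differed by -0.13.

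Of 10 transcription and chromatin factors linked to alternative activation, Pparg rose and Nfil3 fell, with a median of -0.18 (limma; 7 had an unadjusted p under 0.05). The share of all tested genes at that unadjusted level was not counted, so the 7 do not show whether the list stands out. Pparg, a fatty acid-sensing nuclear receptor induced by interleukin 4, had 125, 166 and 460 in Gata6-KO, against 22.5, 22.1 and 9.53 in Gata6-WT (log2 2.78, limma adjusted p = 0.0048). Its Gata6-WT signals lay under 47.5, the level of the test filter, which Pparg passed only through its Gata6-KO signals. Low signals are noisy, so the size of the Pparg difference is uncertain. Nfil3, a basic leucine zipper factor, had 960, 794 and 894 in Gata6-KO, against 1885, 1982 and 1392 in Gata6-WT (log2 -0.96, limma adjusted p = 0.0044). Myc (log2 -1.08), Kdm6b (-0.58) and Batf3 (-0.64) lay lower in Gata6-KO and Ppargc1b (0.5) higher, each without overlap between the groups. None of these passed (limma adjusted p 0.056 to 0.17), and 34.4% of all tested genes had groups without overlap in either direction. The 3 tested Kdm6b probe sets ran from -0.66 to 0.19, so their sign differed. Klf4 differed by 0.62 and Cebpb by 0.2, each with overlapping groups and neither past the threshold.

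The 22 tested genes of the list of other target genes went both ways, with 5 higher, 4 lower and a median of 0.51. Over all tested genes 5.61% were higher and 7.46% lower. The list was assembled with earlier results of these data known, so its directions are a description. The mannose receptor Mrc1 and the haemoglobin scavenger receptor Cd163 had log2 differences of 6.15 and 5.46, and the galactose-type lectin Clec10a 1.24. Ccl24, a chemokine for eosinophils, had 17784, 20563 and 18987 in Gata6-KO, against 14381, 13879 and 9800 in Gata6-WT (log2 0.61, limma adjusted p = 0.031). Its call was lost without any 1 of the Gata6-KO arrays or Gata6-WT replicate 2 (limma adjusted p 0.052 to 0.11). Lipa, the lysosomal acid lipase that supplies fatty acids in alternatively activated mouse macrophages, had 7747, 6378 and 6480 in Gata6-KO, against 4607, 4768 and 5134 in Gata6-WT (log2 0.5, limma adjusted p = 0.02). The Lipa call was lost without Gata6-KO replicate 1 or Gata6-WT replicate 1 or 2 (0.052 to 0.078).

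The lower genes of that list were Mgl2, Alox15, Cd209a and Slc7a2. Mgl2, a galactose-type lectin closely related to Clec10a, had 67.5, 115 and 68.8 in Gata6-KO, against 420, 403 and 433 in Gata6-WT (log2 -2.15, limma adjusted p = 0.00037). Alox15, the lipoxygenase that interleukin 4 induces in human monocytes, had 21270, 28385 and 21415 in Gata6-KO, against 46435, 54921 and 64451 in Gata6-WT (log2 -1.22, limma adjusted p = 0.0011). Cd209a, a lectin also used as a dendritic cell marker, had 101, 92.1 and 158 in Gata6-KO, against 1109, 584 and 281 in Gata6-WT (log2 -2.17, limma adjusted p = 0.01). Among genes commonly used as markers of interleukin 4 activation, Retnla, Chil3, Mrc1 and Clec10a were higher and Mgl2 and Alox15 lower in the same arrays. The labels name no cytokine treatment, and the part of interleukin 4 in these directions was not tested.

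Arginine genes around Arg1 were also divided. Of 8 tested, Gatm rose and Slc7a2 fell, with a median of -0.07. Slc7a2, the transporter CAT2 that brings arginine into activated macrophages, had 662, 1444 and 1666 in Gata6-KO, against 2733, 2717 and 2127 in Gata6-WT (log2 -1.09, limma adjusted p = 0.044). It passed at 1 of 4 probe sets, did not pass after median scaling (limma adjusted p = 0.058), and lost the call without Gata6-KO replicate 2 or any 1 of the Gata6-WT arrays (limma adjusted p 0.061 to 0.13). Gatm, which uses arginine for creatine synthesis, had 2760, 3874 and 2378 in Gata6-KO, against 2134, 1241 and 1470 in Gata6-WT (log2 0.9, limma adjusted p = 0.032), and lost the call without Gata6-KO replicate 1 or 2 or Gata6-WT replicate 2 or 3 (0.069 to 0.11). Arg2, the mitochondrial arginase, and Nos2, the inducible nitric oxide synthase, were below the filter.

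Of 7 tested genes of the opposite, classical activation, none passed at the probe set that stood for the gene (limma; 2 had an unadjusted p under 0.05), where 13.1% of all tested genes passed in either direction, with a median log2 difference of 0.25. Il6 differed by 0.49, Cd86 by 0.25 and Ido1 by -0.87, while Nos2, Il12b and Tnf were below the filter. The costimulatory ligand gene Cd80 differed by 0.42 at its brightest probe set, and its other 2 tested probe sets passed as higher. Of 7 measured relatives of Retnla and Chil3, Retnlb, Chil1, Chil4 and Chia1 were below the filter, and none of the 3 tested passed (limma; 1 had an unadjusted p under 0.05). The resistin gene Retn differed by 0.87, the chitinase gene Chit1 by -1.19 and Chid1 by -0.25, each with overlapping groups. Chil1, though below the filter and so not tested, had 5.44, 6.05 and 13.3 in Gata6-KO, against 142, 49.0 and 118 in Gata6-WT, which do not overlap. Pdcd1 and Ccr4, which encode PD-1 and the receptor of both chemokines, were below the filter too. Rgmb, which encodes a second partner of PD-L2, had 171, 250 and 270 in Gata6-KO, against 320, 250 and 435 in Gata6-WT (log2 -0.5, limma adjusted p = 0.24). The 5 tested Rgmb probe sets ran from -0.5 to 0.64, so their sign differed, and none was called. Ackr2, a scavenging receptor of inflammatory chemokines, had 70.6, 156 and 97.1 in Gata6-KO, against 69.4, 68.1 and 42.0 in Gata6-WT (log2 0.67, limma adjusted p = 0.26).

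**Figure D5:**
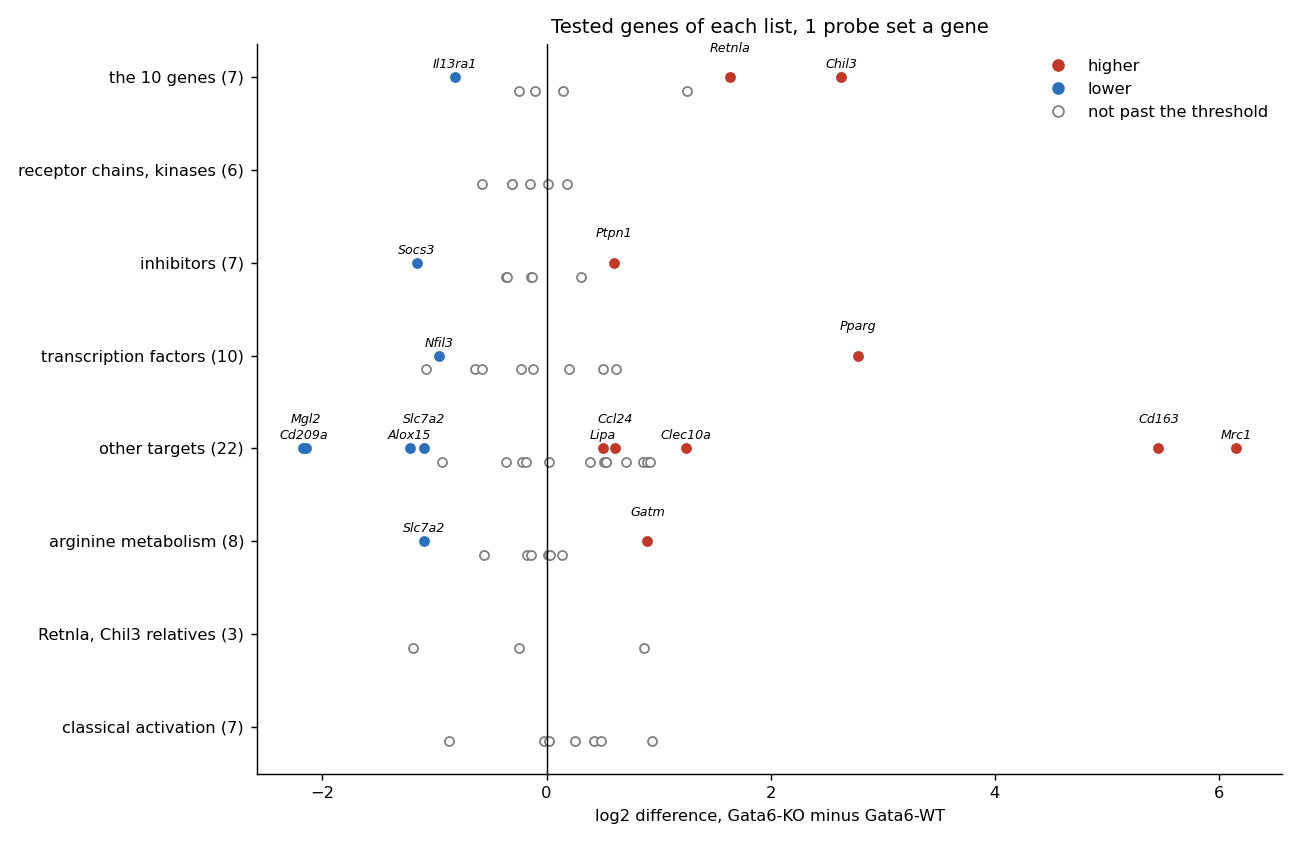
Log2 difference, Gata6-KO minus Gata6-WT, for the tested genes of each list, 1 probe set a gene, with the number tested in brackets. Named filled points pass an adjusted p under 0.05; the other target genes run from -2.17 at Cd209a to 6.15 at Mrc1, while no gene of the receptor chain, relatives and classical activation lists passes.

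The genes whose pattern over the 6 arrays was nearest to each called member were found by the root mean square difference between gene-centred log2 values, among the other 12510 tested genes. Nearest to Retnla were Cbwd1, Tfec and Zdhhc2, at 0.26, 0.27 and 0.27, with log2 differences of 1.7, 1.47 and 1.24 between the genotypes. Nearest to Chil3, but more distant, were the C-type lectin receptor Clec4a2, Atp8b4 and Ryr1, at 0.68, 0.7 and 0.72, with log2 differences of 2.54, 2.01 and 1.82. Nearest to Il13ra1 were Ggct, Cnst and Pbx3, at 0.06, 0.07 and 0.07. These distances describe 6 arrays and share the genotype difference.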

How the data were processed

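The authors deposited linear intensity values, 1 MAS5 signal per probe set and array; the submitters' processing notes list MAS5 and affy as tools, without versions. A 2% trimmed mean over the 45101 probe sets came to 500 on each array. Low MAS5 signals are noisy, and detection calls were not used. No pair of arrays held identical values.

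Signals were taken as log2(signal + 16), without the 64 control probe sets and with no further normalization, so fold changes of low signals are understated. Testing was limited to the 27022 probe sets whose 6-array mean exceeded the 40th percentile (log2 5.99). Gata6-KO and Gata6-WT were compared with limma 3.58.1 in R 4.3.3 by lmFit and eBayes with trend = TRUE. P-values are two-sided and were adjusted by Benjamini-Hochberg over all tested probe sets, with a threshold of 0.05; the fit was tested on simulated data. The brightest tested probe set stood for its gene. Single probe sets were also compared by an exact permutation test. All 18 probe sets of the 10 genes matched the GRCm38.p6 gene table, which gives the promoter windows; Arg1 has none there.

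Named genes are all members, up to 4 called genes a list by size of change (up to 3 by p where none was called), some further list members, and the 3 nearest in pattern. The members, lists and tests were chosen with earlier results of these data known. Variations were pseudocounts of 1 and 64, other filters and scalings, no trend, array weights, a replicate block, a term for replicate 1, omission of arrays, a 2-fold minimum and averaging the probe sets of each gene. Plots used Python 3.11.15 and matplotlib 3.10.9.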

Additional observations from a re-analysis of the deposited data

How the results depend on the processing

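Of 246 repeats over the 14 tested probe sets of the 10 genes, 227 kept direction and side of the threshold, 5 lost and 3 gained a call, and 11 changed sign without a call. The 2 genes higher in Gata6-KO became 0 in limma without the trend (3 at an unadjusted p under 0.05) and 1 to 3 with 1 array left out, the 3 including Arg1 without Gata6-WT replicate 1. The 1 lower gene became 0 with replicates 2 and 3 alone (1 at an unadjusted p under 0.05; limma adjusted p 0.051) and 0 with a 2-fold minimum, which Il13ra1 does not reach. The 2916 changed probe sets were 1459 without the trend, 1654 with replicates 2 and 3 alone, 1256 with the 2-fold minimum and 1856 to 2476 with 1 array left out. Signs that turned, none with a call, were those of Il4ra with the mean of its probe sets (0.17), and with replicates 2 and 3 alone of its dimmer probe sets (-0.13 and -0.07), the dimmer Stat6 probe set (-0.16) and Irf4 (-0.09). With 1 array left out these ranged from -0.19 to 1.21 and -0.1 to 0.47 for the Il4ra probe sets and from -0.21 to 0.04 and -0.13 to 0.23 for Stat6. The intermediate Gata6 probe set ran from -0.17 to 0.18 with 1 array left out, at 0.05 after median scaling and 0.07 with array weights. Same-numbered arrays deviated together only weakly (r = 0.13, 0.07 and 0.07), though each correlated best with its own number; with the replicate block 3076 probe sets passed and Arg1 had a limma adjusted p of 0.015. Other causes of these shifts were not tested.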
